A study of Mus musculus with 6 samples.

Results

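The genes described here encode the matrix metalloproteases (Mmp), the Adam and Adamts metalloproteases and the tissue inhibitors of metalloproteases (Timp). They were taken as every protein-coding gene whose symbol is Mmp, Timp, Adam or Adamts followed by a number, which gave 78 of the 52550 genes listed, namely 22 Mmp, 4 Timp, 33 Adam and 19 Adamts genes. Expression was measured by RNA sequencing of GFP-positive cells sorted from embryonic livers of SOX9-GFP mice on the CD-1 strain, whose green fluorescence reports SOX9, the transcription factor of the bile duct lineage. There were 3 libraries at E16.5, when lumens start to form in the ductal plate, and 3 at E18.5, here called replicates A, B and C, and each came from a pool of livers. Both stages carried the same transgene and received no treatment, the livers were dissociated with collagenase and dispase, hematopoietic cells were removed magnetically before the sort, and the sample labels give the stages as embryonic days 16 and 18. Values are TPM, which are scaled by gene length and library total, so that levels of different genes can be compared.

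Metalloproteases of these families hold a zinc ion in their active site. Mmp proteins cut collagens, laminins and other matrix proteins and are either secreted or held on the cell surface, while Adam proteins span the membrane and release the outer part of receptors, growth factors and adhesion molecules. Adamts proteins are secreted, bind the matrix through thrombospondin repeats and cut proteoglycans, procollagens or other matrix proteins, and Timp proteins block the active site of the proteases. In the developing liver, cholangiocytes of the ductal plate rest on a laminin-containing basement membrane that faces the portal mesenchyme, and these enzymes are known for remodeling such matrix around growing tubes.

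The labelled cell type was checked first against marker genes. The 11 cholangiocyte markers, among them Sox9, Krt19 and Epcam, summed to between 708 and 2460 TPM at E16.5, against between 8000 and 13800 TPM at E18.5, and 9 of the 11 rose while 0 fell, or 3 and 0 with the median-of-ratios scaling described further on. Most of each sum was Spp1, at 1278, 1767 and 469 TPM at E16.5 and 10010, 12120 and 6629 TPM at E18.5 in the order A, B, C. The sorted cells also held high levels of hepatoblast transcripts, whose 11 measured markers summed to between 178000 and 228000 TPM at E16.5, against between 41300 and 103000 TPM at E18.5, with 7 of 11 fallen and 0 risen (6 and 0 with that scaling). Most of each hepatoblast sum was Alb, which was lower in every E18.5 library but did not pass the test. Within E16.5, replicate C had the lowest cholangiocyte sum, and 32 of 46 tested metalloprotease and inhibitor genes (69.6%) were lowest in it, against 56.5% of all genes tested. Megakaryocyte markers fell, with sums of 5870, 3380 and 9770 TPM at E16.5, against 98.2, 780 and 229 TPM at E18.5 in the order A, B, C, and 10 of 10 passed the test with either scaling. In bulk RNA, fewer cells of a type and less RNA per cell cannot be told apart. Reads recovered from the TPM, summed over the 49583 genes where this worked, ran from 23193537 to 26206374 at E16.5 and from 13093937 to 22643868 at E18.5. These sums leave out abundant genes such as Ahsg and Ttr and reads assigned to no gene, so they are not the full sequencing depth. A single read was worth more TPM in every E18.5 library than in any E16.5 library, so low values are less precise at E18.5.

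Each of the 78 genes had a value above 0 in at least 1 library, and 58 had one in all 6. The mean over the 6 libraries reached 10 TPM for 20 genes and 1 TPM, the minimum set for testing, for 46, and the other 32 had a mean of at most 0.992 TPM. Of the 46, Adam1b, Adam30, Adam32, Adamts4, Adamts8 and Mmp9, 6 genes, averaged 1 TPM or more at E18.5 only, so they entered the test through the stage where they were higher, and a call for one of them is no support for a difference. Adamts1 was the most abundant, with a mean of 482.7 TPM, followed by Adamts16 (179.7 TPM), Adam10 (169.8 TPM), Adamts9 (137.7 TPM), Mmp14 (75.7 TPM) and Timp3 (58.1 TPM). The sum over all 78 genes was 1070 ± 159 TPM at E16.5, against 2160 ± 232 TPM at E18.5 (SD, n = 3 each), which is 2.02 times as much. Most of that difference was in the Adamts genes, whose sum was 524 ± 155 TPM at E16.5, against 1460 ± 199 TPM at E18.5. These sums are of TPM as deposited. Median-of-ratios scaling divides the libraries by 0.771 to 0.933 at E16.5 and by 1.115 to 1.28 at E18.5, so with it the rise of both sums would be smaller.

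**Figure D1:**
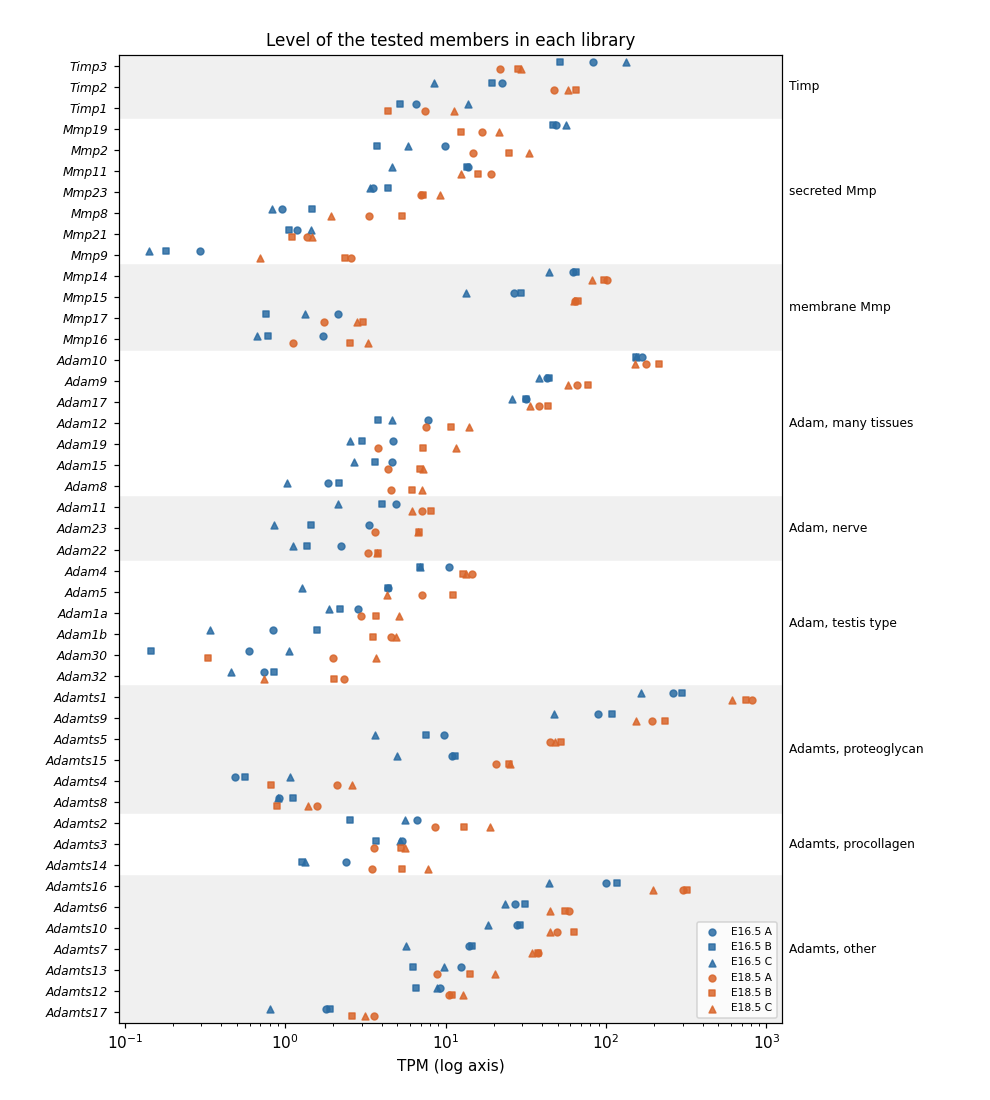
Level of each of the 46 tested genes in every library, in TPM on a log axis, grouped by role. Blue points are E16.5, orange points E18.5, and the shape gives the replicate. Adamts1 lies farthest right at both stages, and Timp3 and Mmp19 are the 2 genes whose E16.5 values all lie above their E18.5 values.

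Promoter windows of 250 bases before the annotated start were read from RefSeq (GRCm38.p6), and 48 of the 78 genes had one or more, 53 windows in all. The windows printed here are those of Adamts1 and Mmp14, which were highly expressed, and of Mmp13 and Mmp7 on chromosome 9, which were nearly silent here. They are written 5′ to 3′ on the gene's strand, with capitals marking motif matches on either strand, none of which overlap. Adamts1 (chr16:85803114-85803363, minus strand) has 3 GC boxes (GGGCGG), which start 147, 76 and 25 bases before the start site, and a TATA box (TATAAA) 32 bases before it. Mmp14 (chr14:54431348-54431597, plus strand) has 2 adjoining GC boxes, 19 and 13 bases before the start. Mmp13 (chr9:7272264-7272513, plus strand) has an AP-1 motif (TGANTCA) 35 bases and a TATA box 16 bases before the start. Mmp7 (chr9:7691840-7692089, plus strand) has an AP-1 motif 63 bases, TATA boxes 123 and 26 bases and a SOX motif (ACAATG, here as its reverse complement) 102 bases before the start.
Adamts1: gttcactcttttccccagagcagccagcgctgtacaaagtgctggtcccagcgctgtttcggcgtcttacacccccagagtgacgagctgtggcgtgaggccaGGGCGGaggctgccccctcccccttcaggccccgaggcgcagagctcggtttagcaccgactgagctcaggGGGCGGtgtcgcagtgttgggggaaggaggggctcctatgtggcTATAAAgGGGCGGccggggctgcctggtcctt
Mmp14: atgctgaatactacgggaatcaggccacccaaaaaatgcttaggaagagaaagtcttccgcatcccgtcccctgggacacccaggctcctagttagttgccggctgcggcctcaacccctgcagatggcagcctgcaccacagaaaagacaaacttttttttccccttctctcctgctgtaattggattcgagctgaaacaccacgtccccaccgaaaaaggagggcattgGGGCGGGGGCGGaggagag
Mmp13: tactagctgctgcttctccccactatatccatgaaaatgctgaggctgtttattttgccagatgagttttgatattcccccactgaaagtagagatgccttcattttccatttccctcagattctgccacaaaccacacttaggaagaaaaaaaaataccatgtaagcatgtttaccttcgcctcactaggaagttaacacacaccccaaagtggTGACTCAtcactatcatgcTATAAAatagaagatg
Mmp7: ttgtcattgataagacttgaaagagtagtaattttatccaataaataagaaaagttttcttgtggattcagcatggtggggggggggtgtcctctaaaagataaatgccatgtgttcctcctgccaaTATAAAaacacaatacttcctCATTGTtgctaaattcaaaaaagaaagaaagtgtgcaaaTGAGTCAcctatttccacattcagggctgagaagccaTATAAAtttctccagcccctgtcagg

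The same motifs were counted in the groups these windows come from, as far as the genes had a window. Of the 9 Mmp genes in the run on chromosome 9, all of which had a window, 7 held an AP-1 motif, 6 a TATA box and 0 a GC box. Of the 20 genes that averaged 10 TPM or more, only 10 had a window, and Adamts16, Adam9 and Mmp19 were among those without. Of the 10 with a window, 9 held a GC box, 0 an AP-1 motif and 1, Adamts1, a TATA box. GC boxes were also found in Adamts18, Adamts20, Mmp24, Mmp25 and Mmp28, which were below the minimum for testing, so they were not confined to highly expressed members. Over the 53 member windows the AP-1 motif was found in 20.8%, against 6.75% of all 32851 windows of this length, the GC box in 37.7% against 32.7%, and the TATA box in 20.8% against 12.4%. The 11 member windows with an AP-1 motif include those of the 7 genes of the chromosome 9 run. The 11 with a TATA box include those of the 6, so these shares lean on 1 run of neighboring genes. The SOX motif was found in 9.43% of member windows against 10.7% of all windows. The TEAD motif (GGAATG) was found in 5.66% against 12.6%, and the ETS motif (CCGGAAG) in 3.77% against 6.91%. A match describes letters only, and a window without one says nothing of the factor.

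Between the stages, 21 of the 46 genes tested were higher at E18.5, 2 were lower and 23 did not pass the test (limma on log2(TPM + 1), Benjamini-Hochberg adjusted p under 0.05 over all 22452 genes tested). The 21 are 45.7% of those tested, where 31.2% of all genes tested were called, 26.0% higher and 5.22% lower, and where 31.5% of the protein-coding genes tested were higher and 6.43% lower. The stages were fully apart in 28 genes in the upward direction and in 2 in the downward one, against 45.0% and 8.30% of all genes, and they overlapped in the other 16. TPM tended upward at E18.5 in general: the median log2 fold change was 0.42 over all genes tested and 0.85 over the 46. Median-of-ratios scaling, which sets each library by its typical gene, brought the median of all genes to 0.02 and that of the 46 to 0.49. Under it 10 of the 46 genes were higher, against 6.81% of all genes and 8.24% of protein-coding ones, and 2 were lower, against 10.4% and 14.0%, so that 12 of the 23 calls were kept. The 21 and the 10 both include Adam1b, which entered the test only through E18.5, so its call is no support for a difference. Among all called genes the share that was higher was 83.3% with the TPM as deposited and 39.6% with that scaling.

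The counts also rested on single libraries. Without replicate A of E18.5 there were 3 higher calls and 1 lower call among the 46 genes, where 3.46% of all genes tested were higher and 1.65% lower. Without replicate B of E18.5 there were 6 and 1, against 7.82% and 3.31% of all genes, so calls were lost across the whole table and not in these families alone. Leaving out any other library gave 14 to 20 higher and 2 lower calls, against 15.1% to 19.6% and 2.80% to 4.56% of all genes. The 23 genes called kept their direction under all alternatives, and Adamts1, Adamts5 and Mmp19 kept their call under all that could be run for them. With 3 libraries against 3 an exact two-sided permutation test cannot go below p = 0.1, so no call rests on it. The p-values measure the spread between pools of livers.

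**Figure D2:**
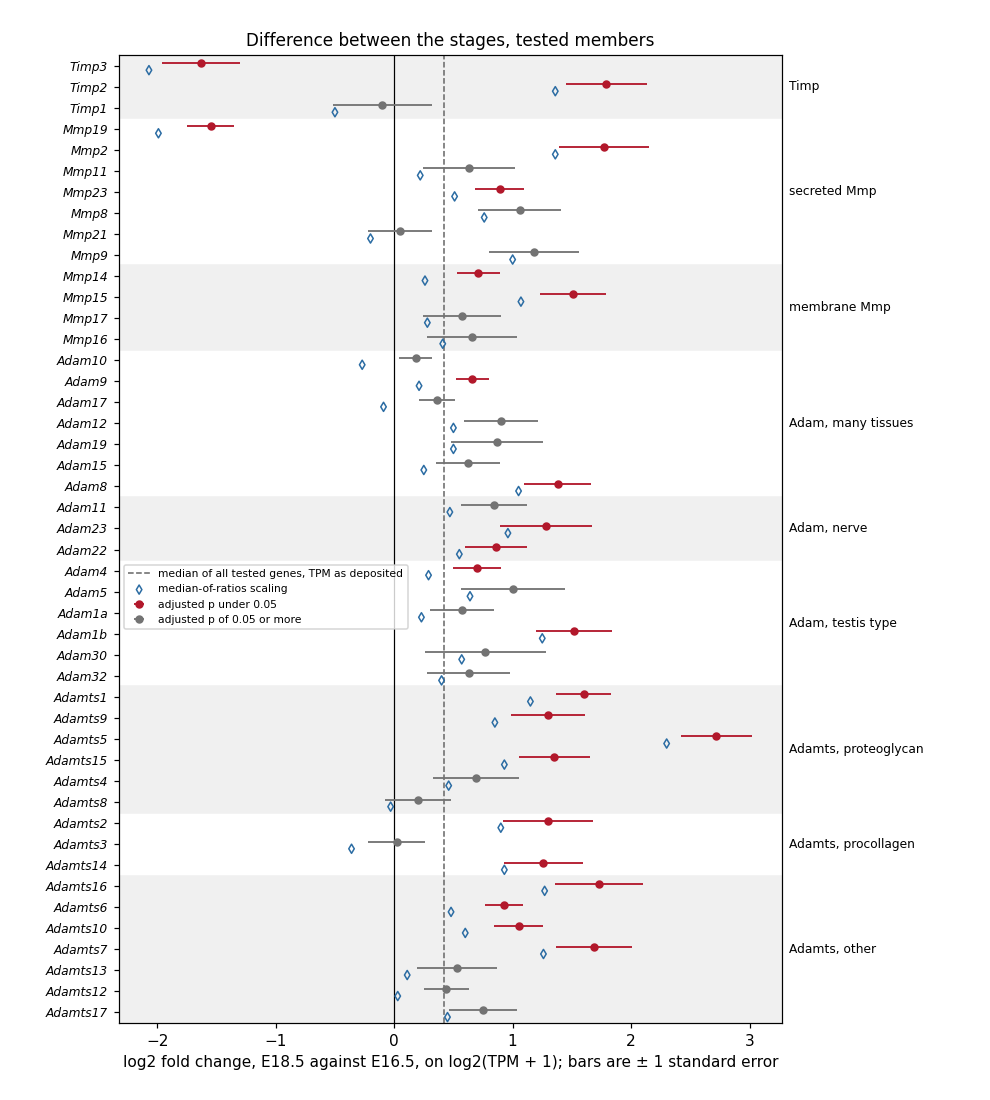
Log2 fold change of E18.5 against E16.5 for the 46 tested genes, grouped by role, with bars of 1 standard error. Red points passed the limma test, blue diamonds give the same value after median-of-ratios scaling, and the dashed line is the median of all genes tested (0.42). Adamts5 has the highest value (2.72), and Timp3 (-1.63) and Mmp19 (-1.55) are the only red points left of 0.

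The inhibitors divided, with Timp2 higher, Timp3 lower and Timp1 not called. Timp3, a matrix-bound inhibitor that also blocks Adam and Adamts proteases, lies on chromosome 10 from 86300372 to 86349506 on the plus strand (GRCm38, as for all positions from here on). It stood at 83.4, 51.4 and 134 TPM at E16.5 in replicates A, B and C in turn, and at 21.9, 28.2 and 29.4 TPM at E18.5. Every E18.5 library lay below every E16.5 library, although the E16.5 libraries spread widely among themselves. Its log2 fold change was -1.63 (SE 0.33, limma adjusted p = 0.0159), and -2.07 with median-of-ratios scaling (adjusted p = 0.0210). The adjusted p was 0.0621 without replicate A of E18.5 and 0.0504 without replicate B. The order of the 3 E16.5 libraries for Timp3, C above A above B, was that of the megakaryocyte marker sums given above, while the E18.5 order, C above B above A, was not (B above C above A), and the part of those cells in its fall was not tested. Timp1, which was not called, had the same E16.5 order, and the share of all genes with that order at E16.5 alone was not counted. Of its exon bases, 21.3% overlap exons of Syn3 on the other strand, and whether the counting used strand is not given in the sources used here.

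Timp2, a secreted inhibitor that also takes part in the activation of pro-Mmp2 at the cell surface, lies on chromosome 11 from 118301069 to 118355740 on the minus strand. It stood at 22.5, 19.4 and 8.43 TPM at E16.5, against 47.6, 64.7 and 57.9 TPM at E18.5. The stages did not overlap, with replicate C of E16.5 the lowest. This gave a log2 fold change of 1.79 (SE 0.34, limma adjusted p = 0.0143) and 1.36 with median-of-ratios scaling (adjusted p = 0.0286), and the adjusted p was 0.0511 without replicate A and 0.0516 without replicate B of E18.5. Within single libraries the ratio of Timp3 to Timp2 was 3.70, 2.66 and 15.9 at E16.5 and 0.461, 0.436 and 0.507 at E18.5. Timp3 was thus the more abundant of the pair in every E16.5 library and Timp2 in every E18.5 library, a comparison that no scaling between libraries can alter.

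Timp1, a secreted inhibitor known to respond to cytokines and injury, stood at 6.57, 5.20 and 13.8 TPM at E16.5, against 7.41, 4.41 and 11.4 TPM at E18.5. The ranges overlapped almost wholly, and replicate C was the highest at both stages. On the log2 scale the fold change was -0.10 (SE 0.42, limma adjusted p = 0.861), but 0.27 without replicate C of E16.5 and 0.20 without replicate B of E18.5, so it has no direction here. Timp4, which is best known from heart, had 5 to 20 reads a library in the earlier stage and 21 to 40 in the later one, at 0.396, 0.152 and 0.106 TPM and then 0.992, 0.730 and 0.877 TPM. It was below the minimum for testing.

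The secreted Mmp genes, 16 in number, had 7 genes tested, of which 2 were higher (28.6%, near the 26.0% of all genes tested), 1 was lower and 4 did not pass. With median-of-ratios scaling 0 of the secreted Mmp genes were higher and 1 was lower. Their summed TPM as deposited was 75.4 ± 3.89 at E16.5, against 74.1 ± 8.56 at E18.5 (SD, n = 3 each), with Mmp19 lower and the other genes together higher. The sums were not computed with that scaling, which lowers E18.5 values against E16.5 ones. Mmp19, a protease of basement membrane components, lies on chromosome 10 from 128790910 to 128800824 on the plus strand. It stood at 48.6, 47.0 and 56.5 TPM at E16.5, against 16.9, 12.5 and 21.4 TPM at E18.5, so it was the most abundant secreted Mmp at the earlier stage and was lower in each later library. The test gave a log2 fold change of -1.55 (SE 0.20, limma adjusted p = 0.00852), and -1.99 with median-of-ratios scaling (adjusted p = 0.0120). Exons of Tmem198b on the other strand cover 28.3% of its exon bases. Its library order was that of the megakaryocyte marker sums in the earlier stage (C above A above B) but not in the later one (C above A above B, where the sums ran B above C above A), as was so for Timp3, and the part of those cells was not tested.

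Mmp2, gelatinase A, which cuts denatured collagen and collagen IV, stood at 9.89, 3.73 and 5.80 TPM at E16.5, against 14.7, 24.8 and 33.2 TPM at E18.5. The stages did not overlap, and Mmp2 was the most abundant secreted Mmp in replicates B and C of E18.5. Its log2 fold change was 1.77 (SE 0.38, limma adjusted p = 0.0190), while with median-of-ratios scaling it was 1.36 and did not pass (adjusted p = 0.0613). It also did not pass without replicate C of E16.5 (adjusted p = 0.0520) or without replicate B of E18.5 (0.0638). Mmp23, an unusual member that starts as a membrane protein and is released by cleavage, rose from 3.54, 4.38 and 3.38 TPM to 7.06, 7.27 and 9.26 TPM, with a log2 fold change of 0.89 (SE 0.21, limma adjusted p = 0.0220). Under median-of-ratios scaling it was 0.51 (adjusted p = 0.125).

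Mmp11 and Mmp21 did not pass. Mmp11, stromelysin 3, stood at 13.9, 13.6 and 4.65 TPM and then 19.1, 15.9 and 12.4 TPM (log2 fold change 0.63, SE 0.39), and the stages overlapped. Mmp9, gelatinase B, which neutrophils store in granules, was listed at 0.297, 0.181 and 0.142 TPM at E16.5, on 9, 5 and 4 reads, and at 2.56, 2.38 and 0.696 TPM at E18.5, on 62, 43 and 10 reads. All E18.5 values lay above the E16.5 values. Its log2 fold change of 1.18 (SE 0.38) missed the threshold (limma adjusted p = 0.0532). It lay under the threshold without the variance trend (0.0383), with voom on recovered reads (0.0196) and without replicate C of E18.5 (0.0289), but Mmp9 entered the test only through E18.5, where it was high, so these values are no support for a difference. Mmp8, the neutrophil collagenase, stood at 0.962, 1.48 and 0.827 TPM and then at 3.32, 5.33 and 1.93 TPM (log2 fold change 1.06, SE 0.35, limma adjusted p = 0.0563). Beside these values, 5 of 9 tested neutrophil markers rose and 0 fell, but 0 passed in either direction with median-of-ratios scaling, with sums of 45.3, 56.0 and 22.9 TPM at E16.5, against 73.3, 254 and 80.1 TPM at E18.5, and their part was not tested.

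Mmp8 is one of the 9 Mmp genes that lie side by side on chromosome 9 between 7272514 and 7699585, a stretch of 427 kb that holds the collagenases Mmp13 and Mmp1b, the stromelysins Mmp3 and Mmp10, the macrophage elastase Mmp12, the enamel protease Mmp20, and also Mmp27 and Mmp7. The highest value of any of the 9 in any library was 5.32 TPM, that of Mmp8 in replicate B of E18.5, and the other 8 were below the minimum for testing. Mmp7, matrilysin, which many adult ductal epithelia make, had 0, 0 and 1 reads at E16.5 and 0, 3 and 1 reads at E18.5. A level of 3 reads, the limit that a count of 0 allows for counting error alone, is 0.328 to 0.360 TPM at E16.5 and 0.411 to 0.692 TPM at E18.5. Mmp7 was therefore at or under this limit in each library. Mmp13 had at most 6 reads in a library and Mmp10 at most 2. Of the 9, Mmp8 and Mmp27 were the ones whose windows lacked the AP-1 motif printed above, and Mmp8 was the one that reached the minimum for testing.

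The membrane-type Mmp genes, 6 in number, had 4 tested, of which 2 were higher (50%, against 26.0% of all genes tested) and 0 lower. With median-of-ratios scaling 1 was higher and 0 lower. Mmp14, the membrane collagenase known as MT1-MMP and an activator of pro-Mmp2, had the highest mean of all Mmp genes at both stages. It lies on chromosome 14 from 54431612 to 54445364 on the plus strand, and its levels were 62.7, 65.5 and 44.4 TPM at E16.5, against 102, 97.4 and 82.4 TPM at E18.5. The stages did not overlap, and replicate C was the lowest at both. On the log2 scale the fold change was 0.71 (SE 0.18, limma adjusted p = 0.0256), but 0.26 with median-of-ratios scaling (adjusted p = 0.176), so the call depends on the scaling. It was also lost without replicate A (adjusted p = 0.0871) or B (0.0756) of E18.5.

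Mmp15, or MT2-MMP, a related membrane collagenase, lies on chromosome 8 from 95352268 to 95375080 on the plus strand. Its levels were 26.6, 29.7 and 13.5 TPM at E16.5, against 64.1, 66.5 and 63.6 TPM at E18.5. The later libraries were nearly alike and all well above the earlier ones. The test gave a log2 fold change of 1.51 (SE 0.28, limma adjusted p = 0.0137), 1.07 with median-of-ratios scaling (adjusted p = 0.0284), and the adjusted p was 0.0554 without replicate A of E18.5. Within libraries the ratio of Mmp15 to Mmp14 was 0.425, 0.454 and 0.303 at E16.5 and 0.628, 0.682 and 0.772 at E18.5, so Mmp14 remained the more abundant while Mmp15 came nearer. The ratio of Mmp14 to its inhibitor Timp2 was 2.78, 3.38 and 5.26 at E16.5 and 2.15, 1.51 and 1.42 at E18.5. Mmp16 and Mmp17 were at 0.665 to 3.30 TPM in the libraries and did not pass, and Mmp24 and Mmp25 were not tested.

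Among the Adam genes, 6 of 16 tested were higher and 0 lower. The 6 are 37.5%, against 26.0% of all genes tested and 31.5% of protein-coding ones. With median-of-ratios scaling 2 of the 16 were higher, against 6.81% of all genes. Both counts include Adam1b, which entered the test only through E18.5, so its call is no support for a difference. The general sheddases Adam10 and Adam17 were abundant but not called. Adam10, the main sheddase of Notch receptors and cadherins, lies on chromosome 9 from 70678997 to 70780229 on the plus strand and stood at 168, 154 and 154 TPM at E16.5, against 179, 213 and 152 TPM at E18.5. The stages overlapped, and the log2 fold change was 0.18 (SE 0.14, limma adjusted p = 0.345), turning to -0.27 with median-of-ratios scaling. Adam17, which releases tumor necrosis factor and EGF receptor ligands, stood at 31.7, 31.7 and 26.1 TPM and then at 38.2, 43.7 and 33.6 TPM. Its stages did not overlap, but its log2 fold change of 0.36 (SE 0.15) did not pass (limma adjusted p = 0.101) and turned to -0.09 with that scaling, so neither gene can be given a direction. Adam10 was 5.34 ± 0.522 times as abundant as Adam17 within libraries at E16.5 and 4.69 ± 0.187 times at E18.5 (SD, n = 3 each).

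Adam9, a widely expressed membrane protease, rose from 43.1, 44.4 and 38.4 TPM to 65.7, 77.8 and 58.3 TPM, with a log2 fold change of 0.66 (SE 0.14, limma adjusted p = 0.0178), which was 0.21 under median-of-ratios scaling (adjusted p = 0.141). Its call was also lost without replicate A of E18.5 (adjusted p = 0.0638). Adam8, which leukocytes and some epithelia express, rose from 1.86, 2.16 and 1.03 TPM to 4.54, 6.16 and 7.11 TPM, and kept its call with that scaling (log2 fold change 1.38, SE 0.28, limma adjusted p = 0.0163, then 1.05 and 0.0392). Of the 9 Adam genes with roles in many tissues, 7 were tested, and these were the 2 called, both higher (28.6%, near the 26.0% of all genes tested). Adam12, Adam15 and Adam19 had positive fold changes of 0.90, 0.62 and 0.87 that did not pass. Adam28 and Adam33 were below the minimum.

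The 3 Adam genes of nerve tissue without a working catalytic site, which act in adhesion and at synapses, were low but present. Adam22 rose from 2.24, 1.37 and 1.13 TPM to 3.27, 3.79 and 3.76 TPM (log2 fold change 0.86, SE 0.26, limma adjusted p = 0.0458), and Adam23 from 3.35, 1.45 and 0.847 TPM to 3.64, 6.79 and 6.77 TPM (1.28, SE 0.39, 0.0450). Both passed narrowly and neither passed with median-of-ratios scaling (adjusted p = 0.148 and 0.125). Adam11 stood at 4.90, 4.003 and 2.15 TPM and then 7.12, 8.15 and 6.17 TPM and missed the threshold (adjusted p = 0.0588).

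Of the 21 Adam genes known from testis and epididymis, where they serve sperm maturation and fertilization, 15 were below the minimum for testing, 2 of the 6 tested were higher (33.3%, against 26.0% of all genes tested) and 0 were lower. Adam4 was the most abundant, at 10.53, 6.91 and 6.91 TPM and then 14.7, 12.8 and 13.4 TPM (log2 fold change 0.70, SE 0.20, limma adjusted p = 0.0376), and did not pass with median-of-ratios scaling (adjusted p = 0.290). Adam1b rose from 0.839, 1.58 and 0.338 TPM to 4.599, 3.52 and 4.94 TPM (1.52, SE 0.32, 0.0177), and had an adjusted p of 0.0446 with that scaling. It is the one called gene that entered the test through E18.5 alone (mean of 0.917 TPM at E16.5), so its call carries no weight. Adam1b lies 15.1 kb from its near copy Adam1a on chromosome 5, and 63.7% of the exon bases of Adam1a overlap Gm42878 on the same strand, so values of this pair are uncertain. The genes Adam18, Adam3, Adam5, Adam32 and Adam9 follow each other on the minus strand of chromosome 8 from 24602246 to 25016927. In that run Adam9 reached 77.8 TPM while Adam5, the next highest, reached 11.2 TPM, and Adam3 and Adam18 were not tested.

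The Adamts genes showed the most calls of the 4 families, with 10 of 16 tested genes higher and 0 lower and a median log2 fold change of 1.15. The 10 are 62.5%, against 26.0% of all genes tested and 31.5% of protein-coding ones. With median-of-ratios scaling 6 were higher, against 6.81% of all genes and 8.24% of protein-coding ones, and the median was 0.73. Among the 7 Adamts genes that cut proteoglycans such as versican and aggrecan, 6 were tested and 4 were higher (66.7%). Adamts1, which cuts versican and also binds vascular endothelial growth factor, lies on chromosome 16 from 85793827 to 85803113 on the minus strand. It stood at 264, 298 and 166 TPM at E16.5, against 812, 746 and 610 TPM at E18.5. Every later library lay far above the highest earlier value, and Adamts1 was the most abundant of the 78 genes in every library. Its log2 fold change was 1.60 (SE 0.23, limma adjusted p = 0.00981), and 1.15 with median-of-ratios scaling (adjusted p = 0.0155). Within libraries Adamts1 was 1.57, 1.94 and 1.08 times as abundant as Adam10 at E16.5 and 4.55, 3.50 and 4.02 times at E18.5.

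Adamts5, the main aggrecanase of mouse cartilage, is the neighbor of Adamts1, 53.1 kb away on the same strand of chromosome 16 (85856173 to 85901828). Its levels were 9.72, 7.61 and 3.63 TPM at E16.5, against 45.0, 52.4 and 48.3 TPM at E18.5. The later libraries differed little and all lay far above the earlier ones, with a log2 fold change of 2.72 (SE 0.30, limma adjusted p = 0.00759), the highest of the 46 genes, and of 2.30 with median-of-ratios scaling (adjusted p = 0.0107). Although both neighbors rose, Adamts5 stayed the rarer, at 0.0369, 0.0255 and 0.0218 times the level of Adamts1 at E16.5 and 0.0554, 0.0702 and 0.0792 times at E18.5.

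Adamts9, a versican-cleaving protease that is also needed at the base of cilia, stood at 88.9, 109 and 47.5 TPM and then at 195, 233 and 154 TPM. Its stages did not overlap (log2 fold change 1.30, SE 0.31, limma adjusted p = 0.0239), but the call was lost with median-of-ratios scaling (0.85, adjusted p = 0.0658). Antisense exons of A730049H05Rik cover 11.99% of its exon bases. Adamts15 rose from 10.97, 11.4 and 4.95 TPM to 20.6, 24.7 and 25.2 TPM (1.35, SE 0.30, 0.0195, and with that scaling 0.93, adjusted p = 0.0528). Adamts4 and Adamts8 were near 1 TPM and did not pass, and Adamts20 was not tested.

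**Figure D3:**
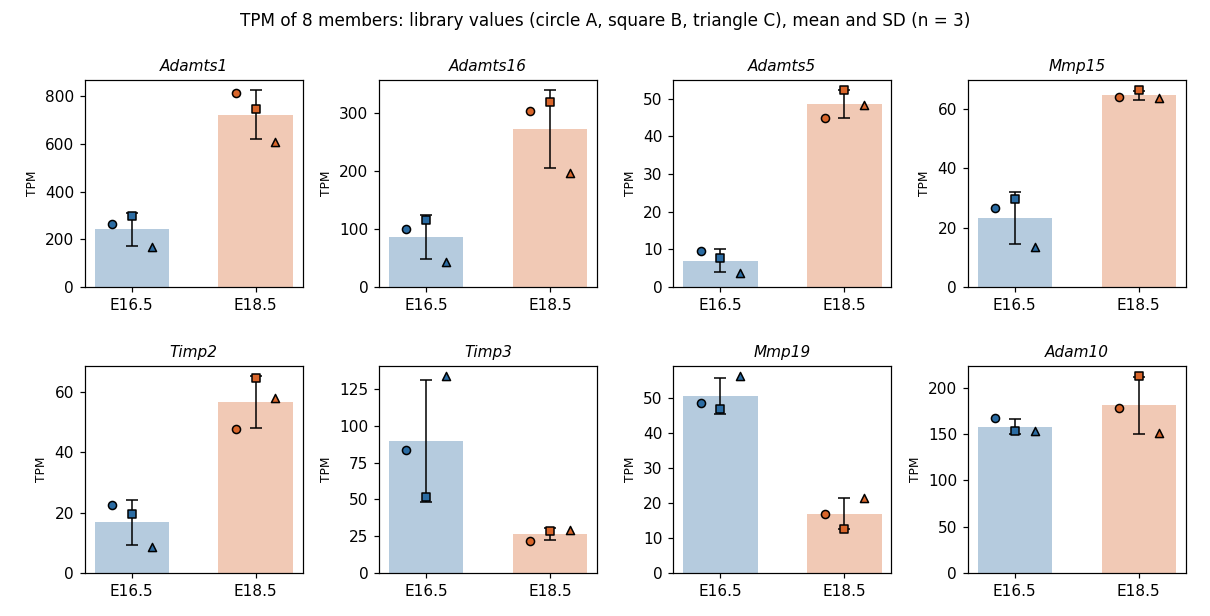
TPM of Adamts1, Adamts16, Adamts5, Mmp15, Timp2, Timp3, Mmp19 and Adam10 in each library, with bars for the mean and whiskers for the SD (n = 3 a stage). Each panel has its own axis from 0, and the symbol gives the replicate. For 7 of the 8 genes the stages do not overlap, with Timp3 and Mmp19 lower at E18.5, while Adam10 overlaps.

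The procollagen N-proteinases, which trim fibrillar collagens before fibers form, were Adamts2, Adamts3 and Adamts14. Adamts2 rose from 6.67, 2.55 and 5.63 TPM to 8.63, 13.1 and 18.8 TPM (log2 fold change 1.30, SE 0.38, limma adjusted p = 0.0387), and Adamts14 from 2.40, 1.28 and 1.33 TPM to 3.46, 5.35 and 7.77 TPM (1.26, SE 0.33, 0.0296). Neither passed with median-of-ratios scaling (adjusted p = 0.171 and 0.0937). Adamts3, which also activates the lymphatic growth factor VEGF-C, was at 5.33, 3.71 and 5.17 TPM and then at 3.58, 5.26 and 5.62 TPM, and its stages overlapped.

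Of the 9 other Adamts genes, 7 were tested and 4 were higher (57.1%, against 26.0% of all genes tested), and those 4 kept their calls with median-of-ratios scaling. Adamts16, known from kidney and gonad development, lies on chromosome 13 from 70727802 to 70841811 on the minus strand and was the second most abundant of the 78 genes by mean level. It stood at 99.5, 117 and 43.9 TPM at E16.5, against 304, 319 and 196 TPM at E18.5, with no overlap and with replicate C lowest at both stages. This gave a log2 fold change of 1.73 (SE 0.37, limma adjusted p = 0.0190), and 1.27 with that scaling (adjusted p = 0.0434). Adamts7, which cuts cartilage oligomeric matrix protein, rose from 14.0, 14.7 and 5.71 TPM to 37.6, 37.6 and 34.4 TPM (1.69, SE 0.32, 0.0146). Its later libraries differed little from one another.

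Adamts6 and Adamts10, which are related by sequence and known to act on fibrillin microfibrils and cell adhesion, stood at similar levels. Adamts6 rose from 27.2, 31.4 and 23.5 TPM to 58.5, 55.5 and 44.7 TPM (log2 fold change 0.93, SE 0.16, limma adjusted p = 0.0125), and Adamts10 from 27.8, 29.0 and 18.4 TPM to 49.5, 62.8 and 44.7 TPM (1.05, SE 0.21, 0.0163). Neither pair of stages overlapped. Adamts13, the von Willebrand factor protease that hepatic stellate cells make, stood at 12.4, 6.30 and 9.80 TPM and then at 8.85, 14.1 and 20.3 TPM, overlapped and did not pass (log2 fold change 0.53, SE 0.34). Adamts12 and Adamts17 also did not pass, with fold changes of 0.44 and 0.75 on the log2 scale, and Adamts18 and Adamts19 were not tested.

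Replicates of a stage differed from one another, and some members shared the order of their libraries with a marker list. The mesenchyme markers, such as Col1a1, Col3a1 and Pdgfra, summed to 346, 176 and 258 TPM at E16.5, against 332, 542 and 833 TPM at E18.5. Of these, 4 of 12 rose (33.3%, against 26.0% of all genes tested and 31.5% of protein-coding ones) and 0 fell, or 1 and 0 with median-of-ratios scaling. Adam12, Adamts2, Adamts3, Adamts12, Adamts13, Adamts14 and Mmp2, 7 of the 46 genes tested, had the order of these sums at both stages, as had 2.39% of all genes tested. The endothelium marker sums had the same order, with 2 of 10 markers risen (20%, against 26.0% of all genes tested) and 0 fallen, or 0 and 1 with that scaling. The endothelium marker Emcn, among those risen, averaged 0.796 TPM at E16.5 and entered the test only through E18.5, so its call is no support for a difference. The order of the cholangiocyte marker sums, most of which was Spp1, was shared at both stages by 9 of the 46, namely Adam5, Adam9, Adam17, Adamts7, Adamts9, Adamts10, Adamts16, Mmp8 and Mmp15, against 13.1% of all genes tested. Adam22, Adam23, Adamts5 and Timp2 had the order of the mesothelium markers, which 6.12% of all genes had. These markers, such as Msln and Upk3b, summed to 9.41, 3.04 and 2.27 TPM and then to 36.1, 84.5 and 82.2 TPM, and 6 of 6 rose with either scaling. Of the 6, Upk1b, Lrrn4 and Muc16 averaged 0.644, 0.466 and 0.316 TPM at E16.5. They entered the test only through E18.5, so their calls are no support for a difference. The part of mesenchyme, cholangiocytes and mesothelium in these members' differences was not tested.

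**Figure D4:**
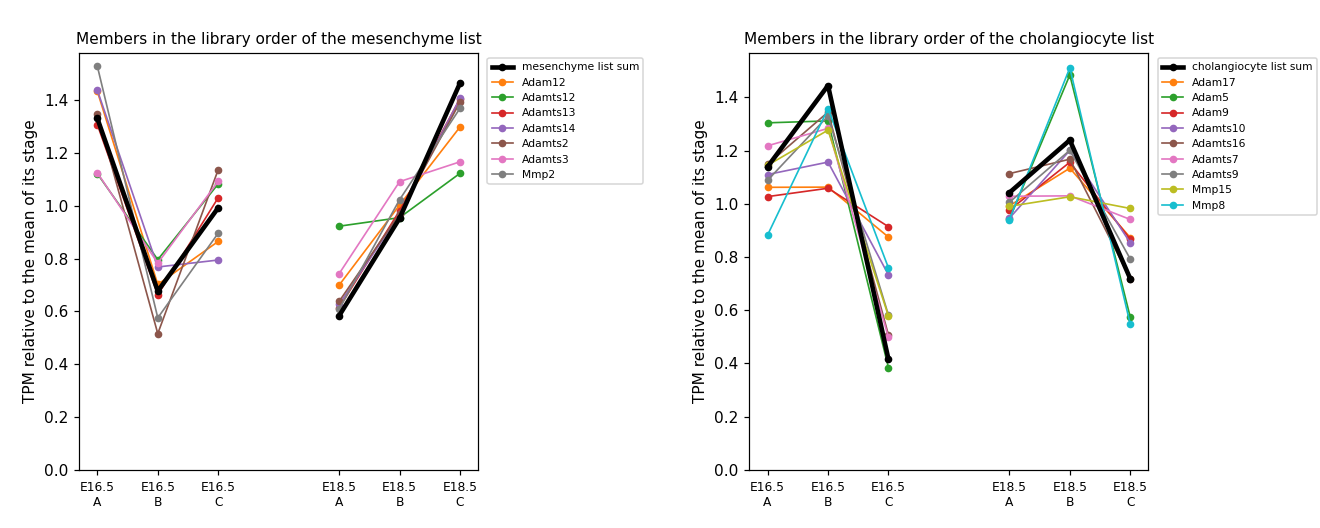
TPM of each library divided by the mean of its stage, for the mesenchyme marker sum and the 7 genes that share its library order (left) and for the cholangiocyte marker sum and the 9 genes that share its order (right). Lines join the replicates of a stage only to make the order visible. Left, replicate A is highest at E16.5 and replicate C at E18.5, and right, replicate C is lowest at both stages.

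Other marker lists were read in the same way. Macrophage markers summed to between 35.5 and 41.0 TPM at E16.5, against between 67.4 and 98.5 TPM at E18.5. Of 8 tested, 2 rose (25%, near the 26.0% of all genes tested) and 0 fell, or 0 and 0 with median-of-ratios scaling. Of the 7 erythroid markers tested, 0 passed in either direction with either scaling. The pancreatic acinar markers summed to 2660, 252 and 78.9 TPM and then to 22.4, 56.5 and 5.61 TPM, with 4 of 8 fallen and 0 risen, or 1 and 0 with that scaling. Amy2a5, called with either scaling, averaged 0.374 TPM at E18.5 and entered the test only through E16.5, so its call is no support for a difference. None of the 46 genes tested had the library order of the macrophage or megakaryocyte list, against 3.25% of all genes. None had that of the erythroid or neutrophil list, against 4.27%. The order of the acinar list was shared by 2 (Adam10 and Adam11), against 13.6% of all genes, and that of the hepatoblast list by 1 (Adamts4), against 2.17%.

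Genes that work with these proteases were read from separate lists. Of 21 tested genes for activation and anchoring of matrix proteases, 6 were higher and 0 lower (1 and 1 with median-of-ratios scaling), a share of 28.6% that lies near the 26.0% of all genes. Plaur, the surface receptor of urokinase, rose from 2.54, 1.03 and 2.40 TPM to 14.2, 4.93 and 21.6 TPM (log2 fold change 2.13, SE 0.50, limma adjusted p = 0.0234). Rhbdf1, which escorts Adam17 to the cell surface, rose from 32.2, 30.0 and 19.3 TPM to 59.4, 60.9 and 54.8 TPM (1.11, SE 0.20, 0.0133) and alone of the 6 kept a higher call with median-of-ratios scaling (adjusted p = 0.0264).

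Of 12 tested related proteases, Adamts-like proteins and their inhibitors, 8 were higher (66.7%, against 26.0% of all genes tested) and 1 was lower, or 3 and 2 with median-of-ratios scaling. Adamtsl2, an Adamts-like protein without protease activity that binds microfibrils, rose from 0.817, 0.642 and 0.455 TPM to 5.32, 6.39 and 9.37 TPM (log2 fold change 2.27, SE 0.28, limma adjusted p = 0.00822), and Adamtsl1 from 2.101, 1.43 and 1.47 TPM to 12.5, 13.9 and 8.45 TPM (2.22, SE 0.25, 0.00779). Adamtsl2 averaged 0.638 TPM at E16.5 and entered the test only through E18.5, so its call, counted above, is no support for a difference. St14, the membrane serine protease matriptase of epithelia, rose from 23.2, 22.7 and 5.24 TPM to 55.3, 64.2 and 50.1 TPM (1.90, SE 0.50, 0.0308), but not with median-of-ratios scaling (adjusted p = 0.0776). Spint1, a membrane inhibitor of such serine proteases, rose from 61.0, 67.3 and 20.8 TPM to 139, 142 and 108 TPM (1.52, SE 0.42, 0.0338) and was also not called with that scaling (adjusted p = 0.0954). Adamtsl4, a further Adamts-like protein of microfibrils, rose from 9.03, 9.99 and 8.30 TPM to 28.9, 20.9 and 33.6 TPM (1.49, SE 0.20, 0.00890). Hpse, the heparan sulfate cleaving enzyme heparanase, was the gene that fell, from 9.35, 6.60 and 17.2 TPM to 4.41, 4.84 and 4.06 TPM (-1.05, SE 0.32, 0.0463). Of 5 tested EGF family ligands that Adam proteases release, 1 was higher (20%, against 26.0% of all genes tested) and 0 were lower. This was Tgfa, at 15.6, 14.2 and 10.95 TPM and then 21.7, 20.8 and 19.6 TPM (0.58, SE 0.17, 0.0372). With median-of-ratios scaling it was not called (0.16, adjusted p = 0.382), nor was any other gene of that list.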

How the data were processed

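The authors ran FastQC 0.11.7 and Trimmomatic on the reads, aligned with HISAT2 2.1.0 (GRCm38), obtained counts per gene from HTSeq 0.5.4p3 with the GENCODE vM15 annotation and turned counts into TPM. The values deposited are these TPM for 52550 genes in 6 libraries, and all columns were used. Stage and replicate letter of each library were read from its label. Libraries came from a kit for stranded total RNA, and whether counting used strand is not given in the sources used here.

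Places and exon lengths came from GENCODE vM21 (52403 identifiers matched, 49035 with the same version). TPM multiplied by exon length and divided by the value of 1 read gave reads, whole within 0.01 for 100% of the 180057 nonzero values of genes with the same version, and reads were recovered for 70 of the 78 genes. They served for the read sums of the libraries, the limit of 3 reads and a voom alternative. Libraries of one stage differed by more than sampling noise (chi-square per degree of freedom of 17.3 or more), so none was a copy.

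The test was limma's moderated test with a variance trend (version 3.58.1, R 4.3.3). It was run on log2(TPM + 1) for the 22452 genes that averaged 1 TPM or more, and p-values were adjusted over all of them by the Benjamini-Hochberg method. This scale understates the change of low genes. Sums, ratios, exact permutation tests and motif searches were made in Python 3.11.15. The limma test was tried on simulated libraries in which a small set of genes was changed up or down. No general shift between the stages was built into them, so they cannot judge the choice of scaling. Alternatives were a smaller pseudocount (0.1), all genes or a minimum mean of 5 TPM, scaling by median of ratios or by quantiles, no trend or a robust fit, voom, a block for the replicate letter, and each library left out in turn.

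The genes, role groups and marker lists were chosen with earlier results of these data known. Genes were named when called, together with all Timp genes, Adam9, Adam10, Adam17, Mmp2, Mmp7, Mmp9, Mmp14 and Mmp15, the most abundant of each group and those that alternatives turn. The others named, such as Mmp8, Mmp11, Mmp13, Adam11 and Adamts13, were chosen after their values were seen. A planned split of the Adam genes by catalytic motif was replaced by one after tissue, written after the table was seen, since protein sequences were not used here. Of the other lists, the 6 called genes with the largest differences were named, and Rhbdf1, Hpse and Tgfa were added after their values were seen.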

Additional observations from a re-analysis of the deposited data

How the results depend on the processing

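The number of genes called higher at E18.5 was 21 of 46, and it was 10 of 46 with median-of-ratios scaling (6.81% of all genes) and 13 of 46 with quantile normalization (8.53%). It was 16 of 78 with no filter (8.01%), 16 of 28 with a minimum mean of 5 TPM (36.3%), 19 of 41 with voom (20.6%), and 19 to 22 of 46 with a smaller pseudocount, no trend, a robust fit or the block (22.6% to 27.5%). Leaving out 1 library gave 3 (without replicate A of E18.5) to 20 higher and 1 to 2 lower, with 3.46% of all genes higher at the lowest. The median log2 fold change of 0.85 was 0.54 with no filter on low values, which adds the genes of lowest TPM, 0.49 with median-of-ratios scaling and 0.45 with quantile normalization, and 0.73 to 0.91 with 1 library left out. Values that changed sign were Adam10 at -0.27 and Adam17 at -0.09 with median-of-ratios scaling, and Timp1 at 0.27 without replicate C of E16.5 and 0.20 without replicate B of E18.5, within a range of -0.39 to 0.27 over libraries left out; the cause was not tested. Of the 28 named genes that were tested, 25 kept their direction under all alternatives run for them, and 9 of the 23 called lost their call only without replicate A or B of E18.5. With the replicate letter as a block there were 19 higher and 2 lower calls and a median of 0.85. Whether same-lettered libraries share more than a name is not given in the labels. Their deviations correlated across genes at -0.04, 0.08 and 0.14 for A, B and C, where differently lettered pairs ran from -0.15 to 0.08. The block lowered some standard errors (Adamts16 from 0.37 to 0.16) and raised others (Adam23 from 0.39 to 0.45), so a pairing is neither shown nor excluded. Voom could not be run for genes without recovered reads. Depth limits the 32 genes below 1 TPM, where a few reads decide a value.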
